A study of Mus musculus with 34 samples.

Results

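Gene expression of the mitochondrial ribosomal proteins was analysed in the left ventricle of CFW mice after myocardial infarction (MI). The members are the genes whose symbol starts with Mrpl or Mrps followed by a digit and whose mean level is at least 1 CPM (read counts scaled to library size). There were 78 of them, 49 with Mrpl symbols, named for the large subunit, and 29 with Mrps symbols, named for the small subunit. The split is by symbol and need not match the subunit that holds the product. The product of Mrps18a, for example, sits in the large subunit. They stood among 12487 genes at that level in a first table and 12555 in a second, and all 78 listed members passed in both tables. MI followed from tying off the left anterior descending coronary artery for good, and each library came from 1 heart. The first table holds 10 hearts without injection: 3 sham hearts (D, H and I, entered as having had no operation although titled sham), 3 hearts 4 h post-MI (C, D and E) and 4 hearts 24 h post-MI (C, D, G and H). The second table holds 24 hearts: 2 uninjected sham-operated hearts taken at 4 h (1 and 2) and infarcted hearts that received modified mRNA (modRNA) in the border zone right after ligation, either Luc (firefly luciferase) or a modRNA labelled AC, whose abbreviation the labels do not spell out. There were 4 AC and 4 Luc hearts at 4 h, 3 and 3 at 24 h, and 4 and 4 at 48 h. A permanent ligature leaves no reperfusion. The labels name the left ventricle for all hearts, and by the study's methods the uninjected hearts were sampled in the ischemic area, or in the matching area of sham hearts. Which part of the injected hearts was taken is not given in the sources used here.

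The mitochondrial ribosome translates the few messengers of mitochondrial DNA, which encode core subunits of the respiratory chain and ATP synthase. Its RNAs are made in the mitochondrion, but every one of its proteins is encoded in the nucleus, translated on cytosolic ribosomes and imported, so building it needs both genomes. The proteins include counterparts of bacterial ribosomal proteins and others found only in mitochondria. The heart depends on oxidative metabolism, and inherited defects of human MRPL3, MRPL44 and MRPS22 cause cardiomyopathy among other disease.

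If the lowest value of a library stands for 1 read, the genes listed in the first table hold about 1.26e+07 to 1.90e+07 reads per library, which is not the whole library. The depth of the second table is unknown. The members together took 0.353% to 0.492% of the listed CPM in the first table and 0.405% to 0.757% in the second. The ribosomal RNA gene Rn45s was at 6881 to 40038 CPM in the first table and 8.67 to 88.1 CPM in the second. In the first table Rn45s was highest in sham replicate D, and its part in the members' levels was not tested. The 10 cardiomyocyte markers were abundant in every group, at a sum of 23355 CPM or more. In the first table, 24 h replicate G stood apart from the other 24 h hearts: the median deviation of its neutrophil and monocyte markers from their table means was 1.77 on the log2 scale against 3.03 to 3.55. In the second table, AC 4 h replicates 1 and 2 lay at opposite ends of the 8 hearts taken at 4 h after injection, with the members' summed level at 5973 and 2754 CPM. Differences below were tested with limma on log2(CPM + 1), with Benjamini-Hochberg adjustment over all genes of the table and a threshold of 0.05. Each log2 fold change is on that scale and is given with its standard error.

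At 24 h post-MI, 31 of the 78 messengers of the mitochondrial ribosome fell against sham hearts, 8 rose and 39 did not pass the test. Over all 12487 genes, 30.3% fell and 35.6% rose, so the falling share of the members (39.7%) was above and the rising share (10.3%) below that of the table. The median log2 fold change was -0.25 over the members and 0.04 over all genes. Both symbol groups took part, with 20 of 49 Mrpl members lower and 6 higher and 11 of 29 Mrps members lower and 2 higher. Their medians were -0.25 and -0.26. All 4 infarcted hearts lay below all 3 sham hearts for 21 of 78 members and above them for 5. That is the case for 28.7% and 35.3% of all genes. By this measure the falling share of the members was not above that of the table.

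**Figure D1:**
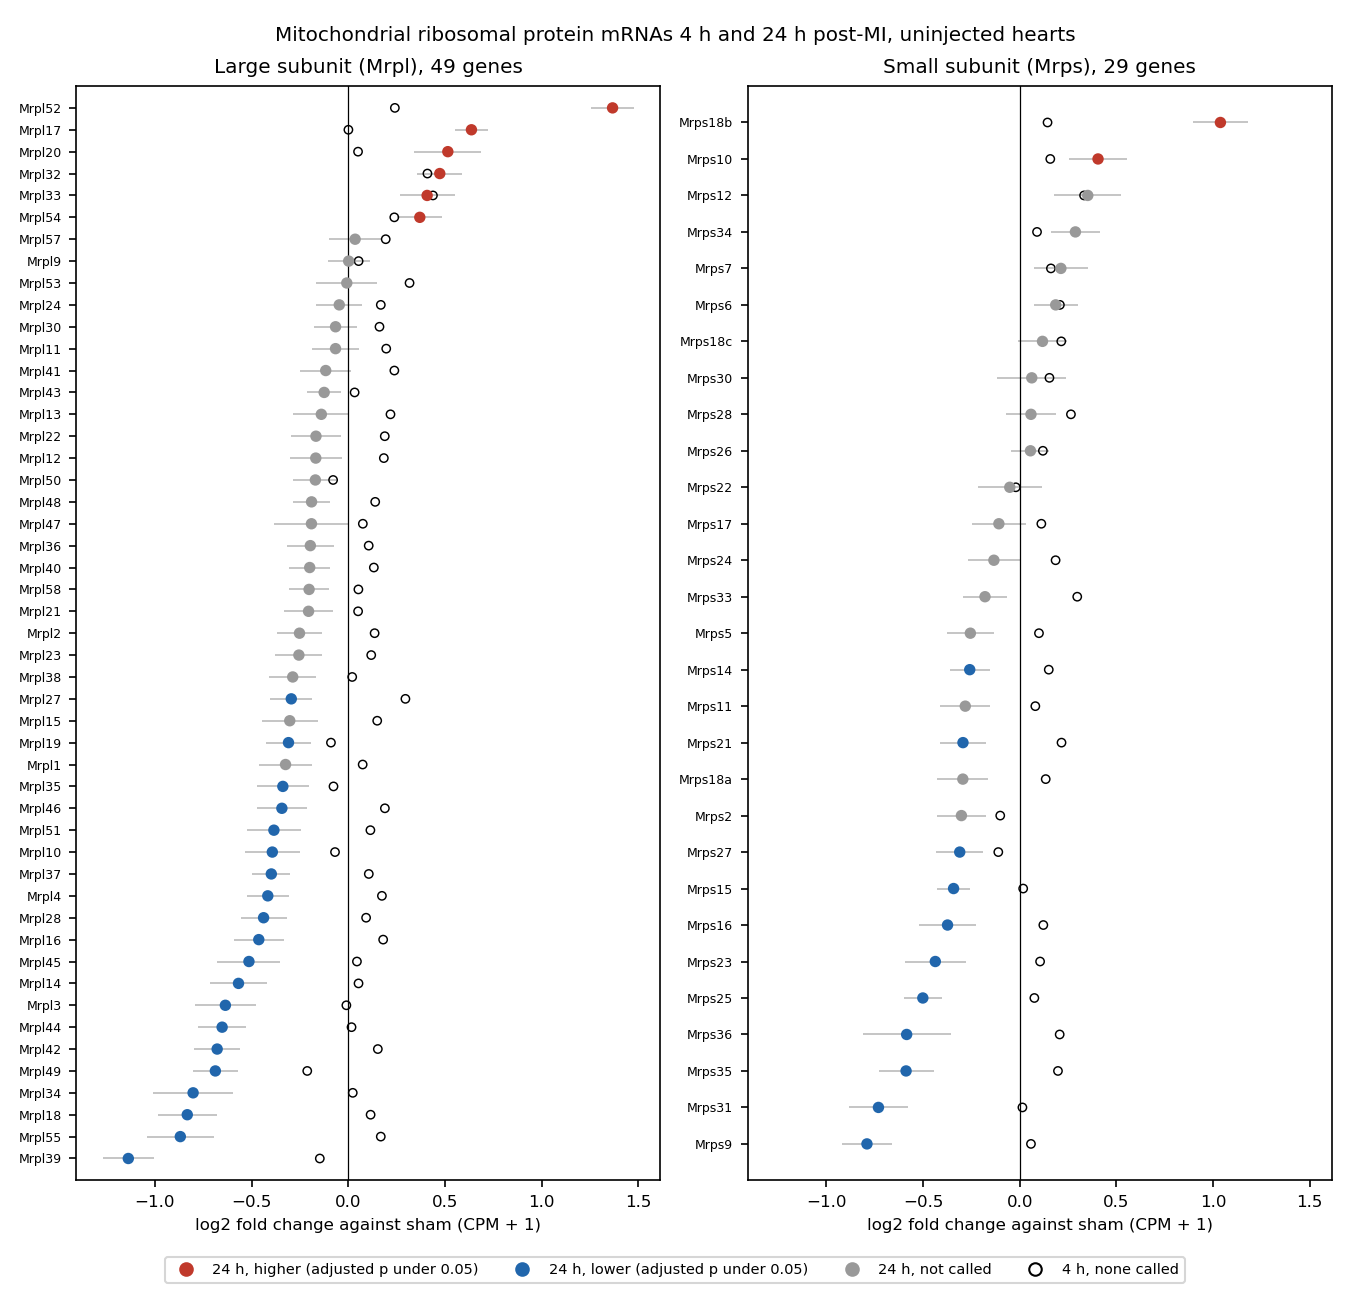
Log2 fold change against sham (horizontal axis, CPM + 1 scale) of each mitochondrial ribosomal protein mRNA in uninjected hearts. By symbol, Mrpl (large subunit) is on the left and Mrps (small subunit) on the right. Filled points are 24 h post-MI with the standard error as a bar, red where higher, blue where lower and grey where not called, and open points are 4 h post-MI, where no member was called. The 24 h points run from -1.14 (Mrpl39) to 1.37 (Mrpl52).

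Mrpl52, a large-subunit protein with no bacterial counterpart, rose most. It was at 12.8, 9.76 and 9.91 CPM in the sham hearts, 12.5, 12.3 and 13.8 CPM at 4 h and 29.9, 28.0, 27.6 and 31.7 CPM at 24 h. All 24 h hearts were far above the other 6, which overlapped. The log2 fold change at 24 h was 1.37 ± 0.11 (adjusted p = 1.7e-06), from a mean of 10.8 ± 1.69 CPM (SD, n = 3) to 29.3 ± 1.87 CPM (SD, n = 4). Mrps18b, 1 of 3 related proteins named after bacterial S18, was at 23.9, 20.01 and 16.8 CPM in sham, 20.8, 24.2 and 22.0 CPM at 4 h and 37.9, 37.8, 42.6 and 52.2 CPM at 24 h. Its 24 h hearts again lay clear of the rest, with a log2 fold change of 1.04 ± 0.14 (adjusted p = 6.5e-05). Mrpl17, whose bacterial counterpart sits at the exit side of the large subunit, stood at 24.7 to 26.5 CPM in sham, 24.9 to 25.7 CPM at 4 h and 36.7 to 43.0 CPM at 24 h. That was a log2 fold change of 0.64 ± 0.09 (adjusted p = 6.2e-05).

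The other 5 members that rose had smaller changes. Mrpl20, the counterpart of a bacterial assembly protein of the large subunit, had a log2 fold change of 0.51 ± 0.17 (adjusted p = 0.021), but sham replicate D (38.3 CPM) lay inside the 24 h range of 34.5 to 43.5 CPM. Mrpl32, which the mitochondrial m-AAA protease trims before assembly, was at 17.7, 13.5 and 13.7 CPM in sham and at 19.0 to 24.2 CPM at 24 h (0.47 ± 0.12, adjusted p = 0.0040). The log2 fold change was 0.41 ± 0.14 for Mrpl33 (adjusted p = 0.024), 0.40 ± 0.15 for the small-subunit head protein Mrps10 (adjusted p = 0.033) and 0.37 ± 0.12 for the mitochondria-specific Mrpl54 (adjusted p = 0.015). Leaving out 1 heart ended the call for Mrpl20, Mrpl33, Mrps10 and Mrpl54: without sham replicate I their adjusted p was 0.11, 0.12, 0.077 and 0.078. Mrpl32 lost its call when hearts with equal replicate numbers were treated as pairs. Mrpl52, Mrps18b and Mrpl17 kept their calls in each alternative tried.

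Mrpl39, a mitochondria-specific large-subunit protein related in fold to threonyl-tRNA synthetase, fell most. It was at 35.9, 40.3 and 35.0 CPM in sham, 34.4, 31.3 and 34.4 CPM at 4 h and 14.7, 14.6, 21.5 and 15.1 CPM at 24 h. The groups did not overlap, and the highest 24 h heart was replicate G. The mean was 37.1 ± 2.83 CPM (SD, n = 3) in sham and 16.5 ± 3.38 CPM (SD, n = 4) at 24 h. On the log2 scale the difference was -1.14 ± 0.13 (adjusted p = 2.1e-05). Mrpl55, a large-subunit protein, was at 26.8, 19.5 and 20.6 CPM in sham and 8.78, 11.7, 15.6 and 11.4 CPM at 24 h (-0.87 ± 0.17, adjusted p = 0.0010). Mrpl18, the counterpart of the bacterial protein that holds 5S ribosomal RNA, was at 75.2, 67.5 and 61.2 CPM in sham and 30.3, 34.8, 49.2 and 38.5 CPM at 24 h (-0.83 ± 0.15, adjusted p = 5.3e-04). Replicate G was the highest 24 h heart for each of these 3.

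Mrps9, a protein of the small-subunit head with a bacterial counterpart, was at 61.2, 59.5 and 50.5 CPM in sham and 26.6, 31.9, 39.8 and 32.9 CPM at 24 h (-0.79 ± 0.13, adjusted p = 2.4e-04). Mrps31, a mitochondria-specific small-subunit protein, was at 33.5, 35.7 and 30.3 CPM in sham and 14.4, 18.3, 24.5 and 22.6 CPM at 24 h (-0.73 ± 0.15, adjusted p = 0.0015). Mrpl42, a mitochondria-specific large-subunit protein, was at 194, 164 and 148 CPM in sham and 90.2, 104, 115 and 110.3 CPM at 24 h (-0.68 ± 0.12, adjusted p = 3.8e-04). None of these 3 overlapped between the groups. Mrpl34 (-0.80 ± 0.21, adjusted p = 0.0053) did overlap, since replicate G at 18.2 CPM exceeded sham replicate I at 17.9 CPM. Mrpl49 fell from 27.6, 26.4 and 24.6 CPM to 14.8, 13.3, 18.7 and 17.2 CPM (-0.69 ± 0.12, adjusted p = 3.6e-04). It overlaps Syvn1 on the opposite strand, and whether reads were counted by strand is not given in the sources used here, so its reads may not all be its own.

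**Figure D2:**
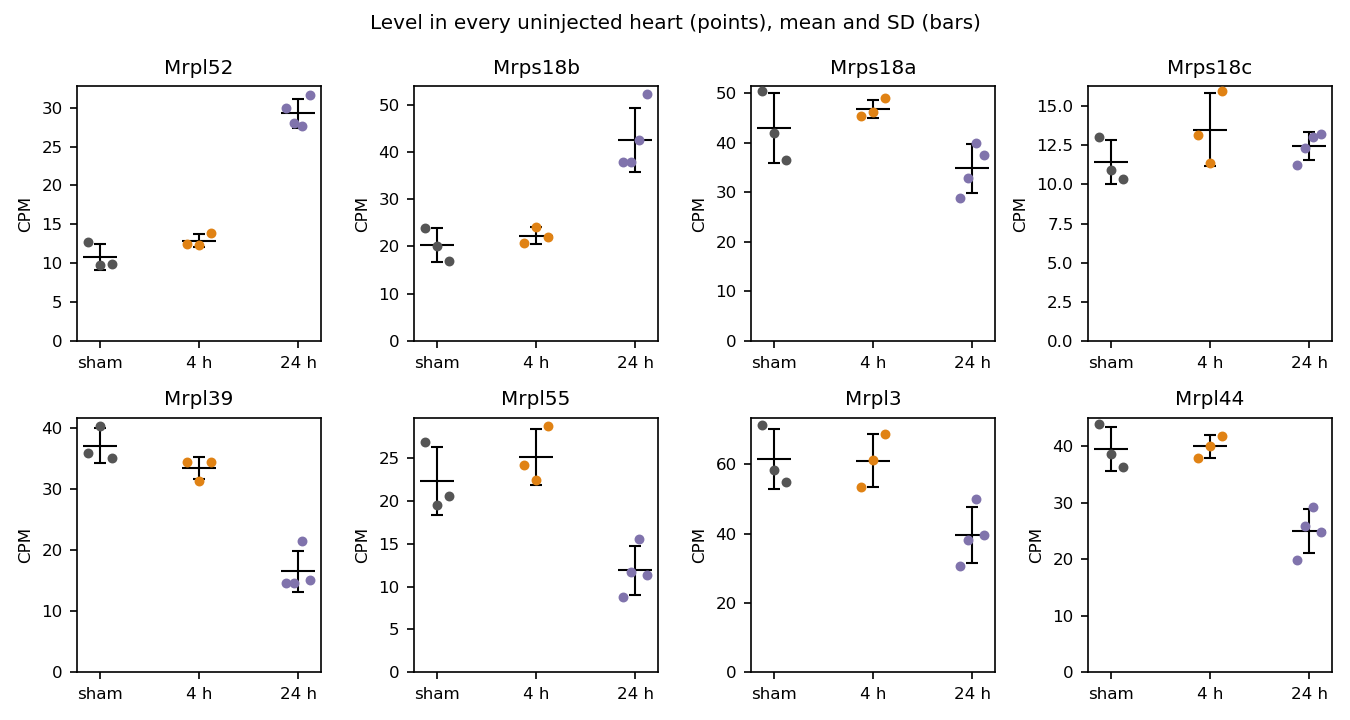
Level in CPM (vertical axis, from 0) of 8 mitochondrial ribosomal protein mRNAs in sham hearts (n = 3), 4 h (n = 3) and 24 h post-MI (n = 4), uninjected, each point being 1 heart and the bars the mean and SD. Mrpl52 and Mrps18b rise at 24 h, Mrpl39, Mrpl55, Mrpl3 and Mrpl44 fall, and Mrps18a and Mrps18c did not pass the test.

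Among the members linked to human cardiomyopathy, Mrpl3 and Mrpl44 fell and Mrps22 did not pass the test. Mrpl3, whose bacterial counterpart lies near the peptidyl transferase centre, was at 71.5, 58.2 and 55.0 CPM in sham and 30.6, 38.1, 50.1 and 39.5 CPM at 24 h, again without overlap (-0.64 ± 0.16, adjusted p = 0.0041). Mrpl44, which has a ribonuclease III-like fold, was at 43.8, 38.5 and 36.2 CPM in sham and 19.8, 25.9, 29.2 and 24.8 CPM at 24 h (-0.65 ± 0.12, adjusted p = 7.3e-04). Mrps22, a mitochondria-specific small-subunit protein, was at 14.6, 13.0 and 9.91 CPM in sham and 11.5, 9.42, 13.9 and 13.2 CPM at 24 h, with overlapping groups (-0.05 ± 0.16, adjusted p = 0.79).

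At the site where translation factors bind, Mrpl10, the stalk base protein, fell (-0.39 ± 0.14, adjusted p = 0.031), although replicate G (50.1 CPM) exceeded the lowest sham heart (47.9 CPM) and the call ended without 24 h replicate C or D or sham replicate D or H. Its partner Mrpl12, which also binds the mitochondrial RNA polymerase, had a log2 fold change of -0.17 ± 0.14 (adjusted p = 0.29), and Mrpl11 one of -0.07 ± 0.12 (adjusted p = 0.64). Mrps12, the decoding-site protein whose bacterial counterpart carries streptomycin resistance, was at 0.35 ± 0.17 (adjusted p = 0.092). Mrps36, a component of the 2-oxoglutarate dehydrogenase complex, fell by 0.59 ± 0.23 on the log2 scale (adjusted p = 0.040). For this gene, sham replicate D (55.0 CPM) was far above the other sham hearts (34.1 and 28.9 CPM). Without that heart the log2 fold change was -0.32 (adjusted p = 0.20). The 3 S18-related genes had separate values: beside the rise of Mrps18b, Mrps18a, whose product sits in the large subunit, had a log2 fold change of -0.29 ± 0.13 (adjusted p = 0.068) and Mrps18c one of 0.12 ± 0.13 (adjusted p = 0.43). Differences between these 3 changes were not tested.

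The cell markers moved with these levels, in the same comparison where 30.3% of all genes fell and 35.6% rose. The 10 cardiomyocyte markers summed to 59624 to 63823 CPM in sham hearts and 23355 to 40604 CPM at 24 h, and 6 of 10 fell. The 10 neutrophil and monocyte markers summed to 62.2 to 122 CPM in sham and 569.6 to 2360.1 CPM at 24 h, and 10 of 10 rose. The 3 atrial markers listed in this table summed to 80.5 to 296 CPM in sham and 1150 to 1822 CPM at 24 h, and 1 of the 2 tested rose. In tissue RNA, fewer cells of a type and less RNA per cell cannot be told apart, and the part of cell composition in the members' levels was not tested. Without replicate G, the 24 h heart with the smallest marker shift, 40 members were lower and 7 higher. Over all genes, 4249 were then lower and 4405 higher, against 3787 and 4449 with every heart kept.

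At 4 h post-MI, no member passed the test by limma, in a comparison where 1.55% of all genes were higher and 0.817% lower. At an unadjusted p under 0.05 there were 4 of 78 members and 2058 of all 12487 genes. The estimates were positive for 68 of 78 members, all measured in the same hearts, with a median of 0.12 against -0.03 over all genes. By heart, the median deviation of the members from their table means was 0.24, 0.04 and -0.10 in sham replicates D, H and I. It was 0.11, 0.15 and 0.27 in 4 h replicates C, D and E, so the groups overlapped. The lowest p-values belonged to Mrpl32, at 19.3, 20.2 and 20.7 CPM against 17.7, 13.5 and 13.7 CPM in sham (0.41 ± 0.13, adjusted p = 0.14), and to Mrpl33, at 44.5, 45.8 and 47.5 CPM against 43.1, 31.7 and 27.9 CPM (0.44 ± 0.15, adjusted p = 0.18). For both, all 3 infarcted hearts were above all sham hearts, which held for 4 of 78 members and 10.9% of all genes. With limma's library weights, 6 members were called higher, these 2 among them. Mrpl3 (-0.01 ± 0.17), Mrpl44 (0.02 ± 0.13), Mrps22 (-0.02 ± 0.18), Mrpl10 (-0.07 ± 0.15), Mrpl11 (0.20 ± 0.13), Mrpl12 (0.18 ± 0.14), Mrps12 (0.33 ± 0.18), Mrps36 (0.21 ± 0.24), Mrps18a (0.13 ± 0.14), Mrps18b (0.14 ± 0.15) and Mrps18c (0.21 ± 0.14) had adjusted p-values of 0.41 to 0.99. The cytosolic ribosomal proteins, with a median of 0.27, and the nuclear-encoded respiratory chain subunits, with 0.20, also had positive medians, and 1 of 88 and 0 of 81 passed the test.

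Between 4 h and 24 h post-MI, 43 members fell and 4 rose, where 26.7% of all genes fell and 37.2% rose. The median was -0.34 over the members and 0.10 over all genes. The largest falls were those of Mrpl55 (-1.04 ± 0.17, adjusted p = 3.3e-04), Mrpl39 (-0.99 ± 0.13, adjusted p = 7.0e-05) and Mrpl18 (-0.95 ± 0.15, adjusted p = 2.4e-04), and the largest rises those of Mrpl52 (1.13 ± 0.11, adjusted p = 8.5e-06), Mrps18b (0.89 ± 0.14, adjusted p = 2.1e-04) and Mrpl17 (0.64 ± 0.09, adjusted p = 7.3e-05). Among the members listed by role, Mrpl3 (-0.63 ± 0.16), Mrpl44 (-0.67 ± 0.12), Mrpl12 (-0.35 ± 0.14), Mrps36 (-0.79 ± 0.23) and Mrps18a (-0.43 ± 0.13) fell, with adjusted p-values from 6.8e-04 to 0.039. Mrps22 (-0.03 ± 0.16), Mrpl10 (-0.32 ± 0.14), Mrpl11 (-0.26 ± 0.12), Mrps12 (0.02 ± 0.17) and Mrps18c (-0.10 ± 0.13) did not pass. The count of falls rests in part on 4 h replicate E, without which it was 27, and on 24 h replicate G, without which it was 51.

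The other ribosome of the cell moved the opposite way at 24 h against sham, where 35.6% of all genes rose and 30.3% fell. Of 88 cytosolic ribosomal protein genes, 86 were higher than in sham and 1 lower (median 1.19), and of 81 nuclear-encoded subunits of the respiratory chain and ATP synthase, 2 were higher and 31 lower (median -0.23). In each of the 4 hearts at 24 h, the median deviation of the cytosolic ribosomal proteins from their table means was positive, at 0.45 to 0.84. In sham replicates D, H and I it was -0.36, -0.66 and -0.63, without overlap. For the members it was -0.32, -0.27, 0.03 and -0.10 in 24 h replicates C, D, G and H. In sham replicates D, H and I the members were at 0.24, 0.04 and -0.10, so their groups overlapped. No test compared these groups of genes with each other. The 5 genes outside the group whose profile over the 10 hearts was most like the mean standardized profile of the members were Uqcc3 (Pearson r = 0.98), Tomm5 (0.97), Ndufa6 (0.97), Spryd4 (0.97) and Cox14 (0.96), given as a description over libraries that also differ by group. Mrpl17 and Mrpl52 had the lowest r with the members' own mean profile, -0.53 and -0.52.

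**Figure D3:**
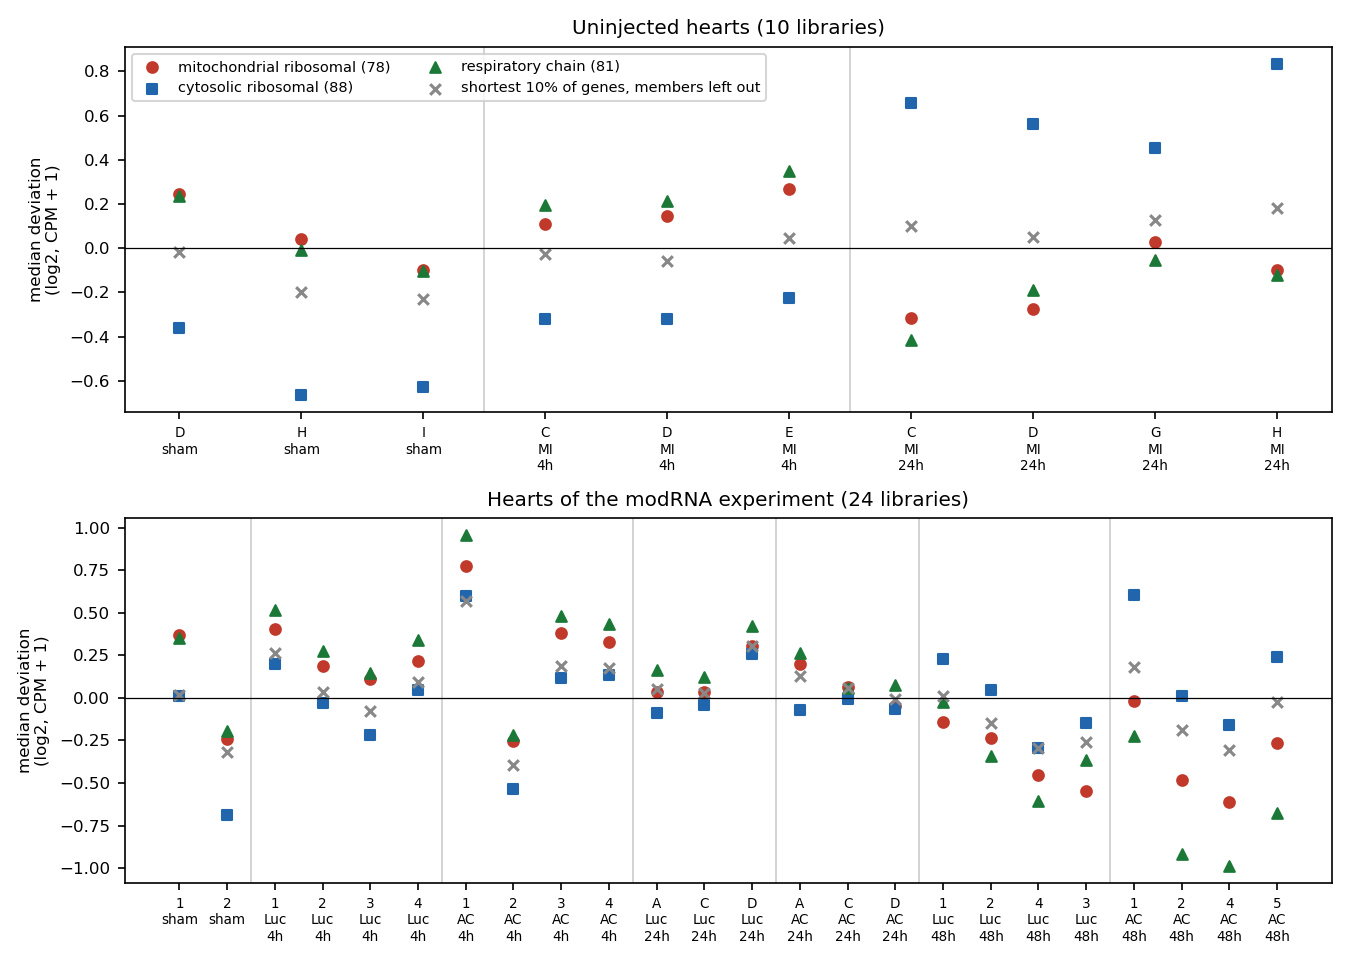
Median deviation from each gene's mean over its table (vertical axis, log2 of CPM + 1) in each library, by group and replicate, for mitochondrial ribosomal, cytosolic ribosomal and respiratory chain genes and for the shortest 10% of genes with the members left out. In the upper panel the cytosolic ribosomal genes go up and the mitochondrial ribosomal genes mostly down at 24 h, and in the lower panel AC 4 h replicates 1 and 2 lie at opposite ends of the AC 4 h hearts for all of these gene groups.

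Other parts of the mitochondrial translation machinery were lower at 24 h as well, in a comparison where 30.3% of all genes fell and 35.6% rose. Of 13 mitochondrial translation factors, 11 fell and none rose (median -0.68), among them the initiation factor Mtif2 (-1.58 ± 0.20, adjusted p = 4.5e-05) and the elongation factors Tufm (-0.74 ± 0.11) and Gfm1 (-0.99 ± 0.16). Of 20 mitochondrial aminoacyl-tRNA synthetases and amidotransferase subunits, 13 fell and none rose (median -0.54). Of 31 assembly and ribosomal RNA factors, 16 fell and none rose (median -0.45), among them Lrpprc, which stabilizes mitochondrial messengers (-0.94 ± 0.17), and Tfb1m, which methylates the small-subunit RNA (-1.13 ± 0.21). Of 8 genes of mitochondrial DNA transcription and replication, 6 fell (median -0.42), including the RNA polymerase Polrmt (-0.62 ± 0.14), and the packaging factor Tfam did not pass (-0.20 ± 0.11, adjusted p = 0.14). Of 5 ribosomal proteins that carry other symbols, Dap3 fell (-0.36 ± 0.10) and Chchd1 rose (0.41 ± 0.15). At 4 h, none of these 77 genes passed the test.

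All 9 regulators of nuclear genes for mitochondria changed at 24 h, in both directions, beside 30.3% of all genes lower and 35.6% higher. The coactivators Ppargc1a (-2.30 ± 0.32, adjusted p = 7.8e-05) and Ppargc1b (-1.14 ± 0.21), the nuclear receptor Esrra (-0.67 ± 0.19) and the DNA-binding subunit Gabpa (-0.45 ± 0.10) fell. Myc (4.32 ± 0.15), Pprc1 (1.61 ± 0.15), Gabpb1 (0.81 ± 0.10), Nrf1 (0.74 ± 0.10) and Yy1 (0.34 ± 0.09) rose.

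Motifs of some of these factors were looked up in the 300 bases from 250 before to 50 after the start of each gene in RefSeq (GRCm38.p6), on both strands. The table held a promoter for 69 of 78 members. CCGGAAG, the core bound by ETS factors such as Gabpa, was in 26 of 69 (37.7%), against 9.93% of all 27025 genes with a promoter and 19.7% of those among the 12487 genes tested. GCGCATGCG (Nrf1) was in 7 (10.1% against 1.95% and 4.13%), AAGATGGCG (Yy1) in 8 (11.6% against 1.64% and 3.58%) and CACGTG (E-box) in 5 (7.25% against 8.09% and 11.8%). TCAAGGTCA (estrogen-related receptor) was in none, against 0.466% and 0.330%, a motif too rare for its absence from 69 genes to tell much. The ETS core was in 4 of the 7 rising members with a promoter, 9 of 28 falling and 13 of 34 others, the Nrf1 motif in 3, 2 and 2, and the Yy1 motif in 0, 4 and 4. The stretches below show the match in capitals for the member that rose most, the S18-related gene that rose, the member that fell most and a cardiomyopathy gene that fell, each read on the gene's strand.
Mrpl52 (ETS core, opposite strand, chr14:54426851-54426880, + strand): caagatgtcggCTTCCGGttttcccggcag
Mrps18b (Nrf1 motif, opposite strand, chr17:35916645-35916674, - strand): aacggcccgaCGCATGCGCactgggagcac
Mrpl39 (Nrf1 motif, chr16:84735350-84735379, - strand): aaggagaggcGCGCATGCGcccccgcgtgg
Mrpl3 (ETS core, chr9:105053238-105053267, + strand): tgagaaacggaCCGGAAGtggcccggctgt
The ETS core and the Nrf1 motif occurred among members that rose and among members that fell. The Yy1 motif was in none of the 7 rising members, which are too few to tell from its share of 11.6% over the members. Differences in these shares were not tested, and a match is only a match of letters. The Nrf1 motif of Mrpl39 also reads on the other strand, shifted by 1 base.

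In the genome (mm10), the members lie on 17 chromosomes, 11 of the genes on chromosome 11. Mrpl52 is at chr14:54426909-54429750 (+), Mrps18b at chr17:35910380-35916440 (-) and Mrpl39 at chr16:84717580-84735302 (-), and none of these 3 overlaps another listed gene. A start on the opposite strand within 1000 bp was found for 27 of 78 members (34.6%) and for 14.3% of all genes tested. Among these head-to-head pairs, the member and its neighbour were both called at 24 h in 8, in the same direction in 6 and in opposite directions in 2. Over all genes tested, 30.3% fell and 35.6% rose, and the share over all head-to-head pairs was not counted. The neighbours of Mrpl55, Mrpl57, Mrps21 and Mrps26 had no test value, and Mrpl46 with Mrps11 was entered from both sides. Mrpl14, Mrpl37, Mrpl51 and Mrps27 fell with their neighbours, and Mrps18b rose with Ppp1r10. Mrpl18 fell while Tcp1, a chaperonin subunit starting 238 bp away, rose (0.74, adjusted p = 7.1e-05). Mrpl49 fell while Fau, which encodes a cytosolic ribosomal protein and starts 137 bp away, rose (1.47, adjusted p = 2.8e-06). Mrpl32 rose with the proteasome subunit Psma2 (0.69, adjusted p = 7.5e-05) at 205 bp. Mrpl46 and Mrps11, members of different subunits whose starts lie 42 bp apart, had log2 fold changes of -0.34 (adjusted p = 0.034) and -0.28 (adjusted p = 0.074).

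In the second table, Luc hearts were compared with the 2 sham-operated hearts, which differed from each other: the median deviation of the members was 0.37 in sham replicate 1 and -0.24 in replicate 2. The time points also differ in how their libraries were named, with 1 form for sham and 4 h, 1 for 24 h and 1 for 48 h, so time and library set cannot be told apart. At 4 h, no member passed (1.25% of all genes were higher and 0.295% lower). An unadjusted p under 0.05 was found for 3 of 78 members and 1710 of all 12555 genes. The lowest p-values among the members were those of Mrpl14 (0.84 ± 0.33, adjusted p = 0.25) and Mrpl4 (0.49 ± 0.22, adjusted p = 0.31). The 5 red blood cell markers summed to 1723 to 2581 CPM at 4 h after Luc, against 196 to 647 CPM in sham, and their part in these values was not tested. At 24 h, 2 members were higher and 3 lower, beside 25.3% and 8.79% of all genes. Mrps34 (0.90 ± 0.30, adjusted p = 0.024) and Mrpl4 (0.70 ± 0.23, adjusted p = 0.023) were higher, and Mrpl49 (-0.87 ± 0.23, adjusted p = 0.0055), Mrps6 (-0.73 ± 0.27, adjusted p = 0.042) and Mrpl39 (-0.54 ± 0.16, adjusted p = 0.012) were lower. Without sham replicate 1 no member passed, and without sham replicate 2 there were 2 higher and 10 lower. Mrps6 overlaps Slc5a3 on the same strand, so its reads may be shared.

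At 48 h after Luc injection, 24 members were lower and none higher than in sham, beside 16.4% and 13.7% of all genes. The median was -0.39 over the members and -0.03 over all genes. Mrpl39 again fell most. It was at 63.2 and 48.6 CPM in sham and at 20.9, 23.7, 20.2 and 27.0 CPM in Luc replicates 1, 2, 3 and 4, without overlap (-1.25 ± 0.15, adjusted p = 4.8e-06). Mrps15, the counterpart of a bacterial protein that binds ribosomal RNA early in assembly, was at 61.5 and 37.5 CPM in sham and 18.7 to 22.8 CPM after Luc (-1.14 ± 0.22, adjusted p = 4.9e-04), and Mrpl42 at 369 and 227 CPM against 124 to 159 CPM (-1.04 ± 0.24, adjusted p = 0.0028). The count depends on the sham hearts, with 5 lower members without replicate 1 and 34 without replicate 2. The 10 cardiomyocyte markers summed to 41215 to 55052 CPM, against 64103 to 65349.5 CPM in sham, and the neutrophil and monocyte markers to 284 to 641 CPM, against 77.6 to 157 CPM. The 4 atrial markers summed to 533 to 1169 CPM, against 60.7 to 117 CPM in sham. The part of these markers in the result was not tested.

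The hearts of this comparison are not those of the first table, so the members called can be set side by side. Of the 31 members lower at 24 h in uninjected hearts, 30 had a negative estimate at 48 h after Luc and 14 were called lower there, which is 45.2% of the first list and 58.3% of the 24 in the second. Among all 78 members, 67 had a negative estimate at 48 h after Luc and 30.8% were called lower. The overlap over all genes was not counted. At the matching time of 24 h after Luc, 17 of the 31 had a negative estimate, with a median of -0.01, and 2 were called lower, Mrpl39 and Mrpl49. Mrpl3, Mrpl39, Mrpl42, Mrpl44, Mrpl49, Mrps9, Mrps31 and Mrps36 are among the 14 called at 48 h. The 8 members that rose in uninjected hearts had a median of 0.04 at 48 h and 0.38 at 24 h after Luc, and none of them was called higher at either time. Mrpl52 was at 23.5 and 11.7 CPM in the sham-operated hearts and 13.4 to 16.2 CPM at 48 h after Luc.

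**Figure D4:**
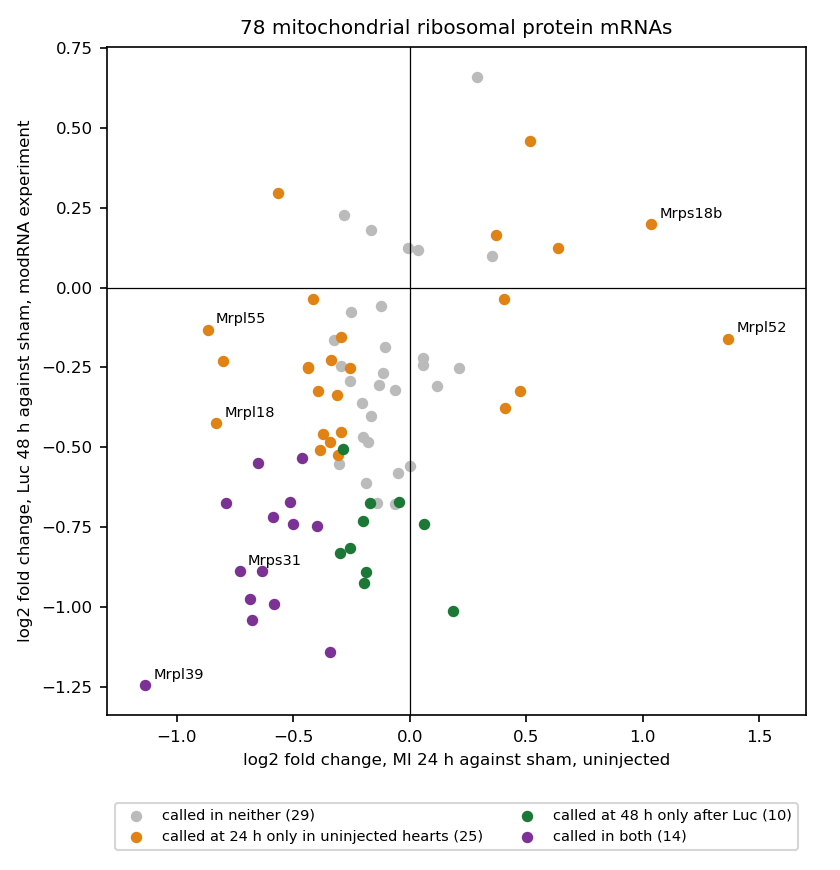
Log2 fold change of the 78 mitochondrial ribosomal protein mRNAs, 24 h post-MI against sham in uninjected hearts (horizontal axis) and 48 h after MI and Luc modRNA against sham in the second table (vertical axis), both on the CPM + 1 scale. Purple points (14) were called in both comparisons, orange (25) and green (10) in 1 of them and grey (29) in neither, and the 14 lie at the lower left with Mrpl39 lowest.

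Within the injected hearts, more members were called lower between 24 h and 48 h than between 4 h and 24 h. With Luc, 30 members were lower at 48 h than at 24 h and none higher (32.6% and 9.32% of all genes), with a median of -0.46 against -0.25 over all genes. Mrps9 fell from 67.6, 76.8 and 87.9 CPM to 34.7 to 42.7 CPM (-0.97 ± 0.18, adjusted p = 3.4e-04), followed by Mrpl28 (-0.86 ± 0.24, adjusted p = 0.0068) and Mrps15 (-0.78 ± 0.19, adjusted p = 0.0027). With AC, 31 were lower and none higher (25.5% and 19.0% of all genes), with a median of -0.43 against -0.08. Mrpl9, the counterpart of a long bacterial protein that reaches off the large subunit, fell from 51.0, 43.7 and 47.9 CPM to 20.4 to 27.3 CPM, 0.49 ± 0.07 times the 24 h mean (adjusted p = 2.9e-04), followed by Mrpl30 (-0.90 ± 0.24, adjusted p = 0.0049) and Mrpl42 (-0.85 ± 0.22, adjusted p = 0.0029). These comparisons share no heart, though they share library sets. In both, 25 members were lower, 83.3% of the Luc list and 80.6% of the AC list. The overlap over all genes was not counted, so these shares cannot be called particular to the members. The direction rests on the authors' scaling: with all libraries set to equal totals, 1 member was lower and 2 higher with Luc and 4 lower and 6 higher with AC, and the medians were 0.01 and 0.01. Over the same interval the cardiomyocyte markers went from 72249 to 89040 CPM down to 41215 to 55052 CPM with Luc and from 63998 to 76275 CPM down to 31180 to 36815 CPM with AC. The neutrophil and monocyte markers went from 110.02 to 168 CPM up to 284 to 641 CPM with Luc and from 139 to 448 CPM up to 469.7 to 598 CPM with AC. None of these sums overlapped between the times, and their part in the fall was not tested.

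Between 4 h and 24 h, Mrpl39 and Mrps6 were lower with either modRNA. With Luc, 3 members were lower and none higher (7.8% and 24.5% of all genes): Mrps6 (-0.97 ± 0.23, adjusted p = 0.0027), Mrpl49 (-0.86 ± 0.19, adjusted p = 0.0019) and Mrpl39 (-0.49 ± 0.13, adjusted p = 0.0070). With AC, 2 were lower and none higher (3.8% and 14.9%): Mrps6 (-0.69 ± 0.23, adjusted p = 0.037) and Mrpl39 (-0.40 ± 0.13, adjusted p = 0.038). The AC count went to 24 without AC 4 h replicate 2 and to 0 without AC 4 h replicate 1 or 4 or AC 24 h replicate A or D. In that replicate 2 the median deviation was -0.25 for the members, -0.54 for the cytosolic ribosomal proteins and -0.39 for the shortest 10% of other genes, and 0.33 for the longest 10%. In replicate 1 these values were 0.77, 0.60, 0.57 and -0.33. The members are short, with 40 of 78 in the shortest 10% of genes by transcript length, and the part of transcript length in these spreads was not tested.

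AC against Luc asks whether the choice of modRNA made a difference to these messengers, and no member passed the test at any time. Both groups were infarcted and injected, so an effect shared by both modRNAs would not show here. At 4 h (0.00796% of all genes higher and 0.0% lower), no member had an unadjusted p under 0.05 and the log2 differences ran from -0.10 to 0.25. The lowest p-values were those of Mrpl22 (0.20 ± 0.16, adjusted p = 1) and Mrpl46 (0.25 ± 0.22, adjusted p = 1). At 24 h (0.00796% higher and 0.0% lower), no member had one under 0.05 either, the differences ran from -0.48 to 0.30, and Mrpl57 (-0.48 ± 0.25) and Mrpl49 (0.30 ± 0.21) came first with adjusted p = 0.99. At 48 h, 12.1% of all genes were higher and 3.27% lower with AC. An unadjusted p under 0.05 was found for 4 of 78 members and 3808 of all 12555 genes. Mrpl49 was at 28.1, 24.7, 23.0 and 28.4 CPM with AC and 15.6, 22.7, 13.4 and 23.0 CPM with Luc (0.49 ± 0.18, adjusted p = 0.065), and Mrps6 differed by 0.47 ± 0.21 (adjusted p = 0.13). The median over the members was -0.03, against 0.14 over all genes.

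None of the members named by role passed the test between AC and Luc. At 48 h the log2 differences were -0.07 ± 0.17 for Mrpl3, -0.02 ± 0.16 for Mrpl44, 0.27 ± 0.18 for Mrps22, 0.01 ± 0.23 for Mrpl12, 0.03 ± 0.13 for Mrpl10, -0.03 ± 0.23 for Mrpl11, 0.03 ± 0.24 for Mrps12 and -0.08 ± 0.22 for Mrps36. The S18-related genes were at -0.05 ± 0.20 (Mrps18a), -0.15 ± 0.19 (Mrps18b) and -0.07 ± 0.22 (Mrps18c). At 4 h these 11 genes ran from 0.01 (Mrps18b) to 0.17 (Mrps12), and at 24 h from -0.22 (Mrpl12) to 0.04 (Mrpl3). The AC effect differed by time for 2.9% of all genes and for no member (limma F test, lowest adjusted p among members 0.45, and none at an unadjusted p under 0.05). With standard errors of 0.13 to 0.28 for these genes, small differences were not detectable.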

How the data were processed

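Total RNA of left ventricular tissue was sequenced as polyadenylated RNA, with 1 library per heart. For the first table (10 libraries), the authors aligned reads to mm10 with STAR, counted RefSeq genes by Partek's expectation-maximization method and scaled them by TMM, so its deposited values are CPM. The making of the second (24 libraries) is not given in the sources used here beyond mm10. Its lowest value is 1 in each library, so these deposited values were taken as CPM + 1 and 1 was subtracted. The tables were scaled separately and compared only within themselves. The first lists genes above 0 in every library, and 81.5% to 83.7% of its values below 1 CPM came out whole in units of the lowest value (tolerance 0.02), too few to recover reads.

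Genes whose mean reached 1 CPM were tested on log2(CPM + 1) with limma 3.58.1 in R 4.3.3, by a group-means model over all libraries of the table with a mean-variance trend and Benjamini-Hochberg adjustment. On simulated data with a fixed dispersion of 0.05, 198 of 200 genes changed 3-fold were recovered for 24 h against sham, with 8 false calls among 12481 genes. All members changed less than 3-fold in that comparison, and the recovery of smaller changes was not simulated.

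The members and gene lists were chosen with earlier results of these data known. Named members are the 8 largest rises and falls among those called at 24 h against sham, the 3 largest elsewhere, the 2 lowest p-values where none was called, and 11 fixed by role. Cardiomyocyte, neutrophil and monocyte, resident macrophage, fibroblast, endothelial, red blood cell and atrial markers were listed. At 24 h against sham, 6, 10, 3, 3, 3, 0 and 1 of them were called, and the red blood cell markers summed to 161 to 247 CPM in sham and 435 to 751 CPM at 4 h. No pair of libraries was identical. Gene ends in the files lie 1 base beyond RefSeq and were moved by 1. Transcript lengths are the longest coding transcript of GENCODE M21, for 96.0% of the genes tested. Same-numbered hearts of different groups did not deviate together (correlations of -0.26 to 0.34), so numbers were not used as pairs. Alternatives were another pseudocount, filter, scaling, weighting, set of groups, a replicate block and leaving out each heart.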

Additional observations from a re-analysis of the deposited data

Results flagged for a closer look

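Mrpl39 at 24 h post-MI in uninjected hearts had 1 heart far from the others, replicate G at 21.5 CPM against 14.6 to 15.1 CPM. That heart also had the smallest shift of neutrophil and monocyte and of cardiomyocyte markers among the 24 h hearts, and its part in the value was not tested. Mrpl10 at 4 h after Luc injection had replicate 1 at 69.9 CPM against 59.2 to 60.1 CPM. Chance alone flags about 1 in 20 groups, and 98 groups were examined. The change from sham differed between 24 h and 4 h post-MI for 47 members in the direct test of the time points, 43 of them lower and 4 higher at 24 h.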

How the results depend on the processing

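The members' median kept its sign under every alternative at 24 h and 4 h post-MI against sham and between these times, at -0.32 to -0.17, 0.04 to 0.22 and -0.44 to -0.29. The counts of members called moved by more than 1.5 times as follows, and the cause was not tested. At 4 h post-MI, array weights called 6 (all higher) and leaving out 1 heart 0 to 1. At 24 h against sham, leaving out 1 heart gave 26 to 47, and against 4 h 30 to 54. With only the 2 groups compared, the counts were 1 for Luc 4 h, 10 for Luc 48 h against sham, 20 for Luc 24 h against 4 h and 0 for AC 24 h against 4 h. Array weights gave 1 for AC against Luc at 48 h, 15 for Luc 48 h against sham, and 14 and 23 for 24 h against 4 h with Luc and AC. Median-ratio scaling gave 1 (lower) for AC against Luc at 48 h, 13 for Luc 24 h against sham, 14 and 9 for 24 h against 4 h with Luc and AC, and 13 for Luc 48 h against 24 h. It moved the calls over all genes for AC against Luc at 48 h from 1516 higher and 410 lower to 845 and 774. Equal totals gave 1 (higher) for AC against Luc at 48 h, 19 for Luc 24 h against sham, 20 and 7 for 24 h against 4 h with Luc and AC, and 3 and 10 for 48 h against 24 h. Leaving out 1 heart gave 0 to 1 for AC against Luc at 48 h, 0 to 12 and 5 to 34 for Luc 24 h and 48 h against sham, 13 to 33 for Luc 48 h against 24 h, 0 to 24 for AC 24 h against 4 h and 16 to 41 for AC 48 h against 24 h. Where a sham-operated heart was left out, the remaining one was assumed to vary like the other groups.

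The replicate block, which treats equal numbers as pairs although only the number is shared, called 24 members (3 higher, 21 lower) for 24 h against sham, the 3 being Mrpl52, Mrps18b and Mrpl17, with Mrpl32 at an adjusted p of 0.062 and Mrpl20, Mrpl33, Mrps10 and Mrpl54 at 0.088 to 0.30, 1 for Luc 4 h and 1 for Luc 48 h against sham, and 54 for 24 h against 4 h post-MI. It called none for AC against Luc at any time, as without it. For the other comparisons no paired analysis was possible because the groups share fewer than 2 numbers or their numbers come from different labels. The depth of the second table is unknown, so no counting error can be given for its low members.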
